A study of Mus musculus with 45 samples.

Results

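Bicuculline (Bic), an antagonist of GABA type A receptors, induces AP firing in neuron cultures, and many transcripts respond to it within hours. The genes described here were chosen for mean levels that changed little, without a test for a response. They are 137 protein-coding genes whose mean level stayed near that of the untreated control after 0.5, 1 and 2 h Bic, yet was markedly lower when NMDA was added to firing-blocked cultures. A gene was included when its mean level was at least 3 CPM after 2 h Bic (CPM being the count of the gene divided by the total of the library and scaled to 1000000), when each of the 3 Bic means lay between 0.85 and 1.18 times the control mean, and when the mean after 1 h Bic followed by 1 h with tetrodotoxin (TTX) and NMDA was at most 0.65 times the mean after 2 h Bic. Of 54532 rows in the deposited table, 21995 were protein-coding genes, 11271 of these reached the CPM minimum, 7344 were flat in Bic, and 137 (1.87% of the flat genes) met all conditions.

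The cells were primary hippocampal neurons from newborn C57BL/6N mice, first cultured in B27 medium with 1% rat serum and given AraC on day in vitro 3 to limit dividing cells. By the study's methods this medium was replaced with another neuronal medium on day 8. The cells were treated on day 10 or 11 by the sample labels, where the methods for sequencing name day 11. Besides the untreated control and the 3 durations of Bic (50 µM), 2 protocols interrupted the firing. In the short protocol (SP), 0.5 h Bic was followed by 0.5 h in Bic with TTX (1 µM), which blocks APs, or with TTX and NMDA (30 µM). In the long protocol (LP), 1 h Bic was followed by 1 h in Bic with TTX, with TTX/NMDA, or with TBOA (50 µM) without TTX. TBOA blocks glutamate uptake. Each of the 9 conditions had 5 libraries, 1 from each of the culture preparations numbered 1, 3, 6, 7 and 8, and values by library are given in that order. The cultures carried no transgene or deletion and were mixed. The summed level of 6 general neuronal markers lay between 5761 and 6905 CPM in the 45 libraries, that of 12 astrocyte markers between 1017 and 2530 CPM and that of 8 microglial markers between 6.15 and 14.03 CPM.

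NMDA receptors are glutamate-gated calcium channels. Receptors within synapses are known for driving survival-promoting gene expression, whereas receptors outside synapses, which bath-applied NMDA also reaches, are known for opposing it and for excitotoxicity. The adhesion proteins, ion channels and guidance receptors that recur among the genes below hold neurites and synapses together, set excitability, and steer growing axons. The question that these genes put to the data concerns transcripts whose mean level had changed little with firing. How did activation of NMDA receptors under TTX, a condition that leaves AP firing aside, change them?

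Because levels chose the genes, their Bic values and their ratio of LP TTX/NMDA to 2 h Bic are descriptions and were not tested. The median ratio was 0.589 (range 0.289 to 0.6499), against 1.08 for all 7344 Bic-flat genes. Just inside the threshold was Cntn2, an axonal adhesion protein (0.6499). The 3 genes just outside were Faxc (0.6501), Galnt16 (0.6508) and Lcor (0.651). In 127 of the 137 genes, each of the 5 LP TTX/NMDA libraries lay below each of the 5 libraries of 2 h Bic, as they did in 11.5% of the 11271 coding genes. In CPM, a loss of some transcripts raises the share of all others, and the median of the 11271 expressed coding genes was 0.16 higher on the log2 scale in LP TTX/NMDA than in 2 h Bic. With TMM scaling this shift was −0.02, and the median ratio of the 137 genes was 0.520. Transcripts of lost cells and less transcript per cell cannot be told apart in such bulk libraries.

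**Figure D1:**
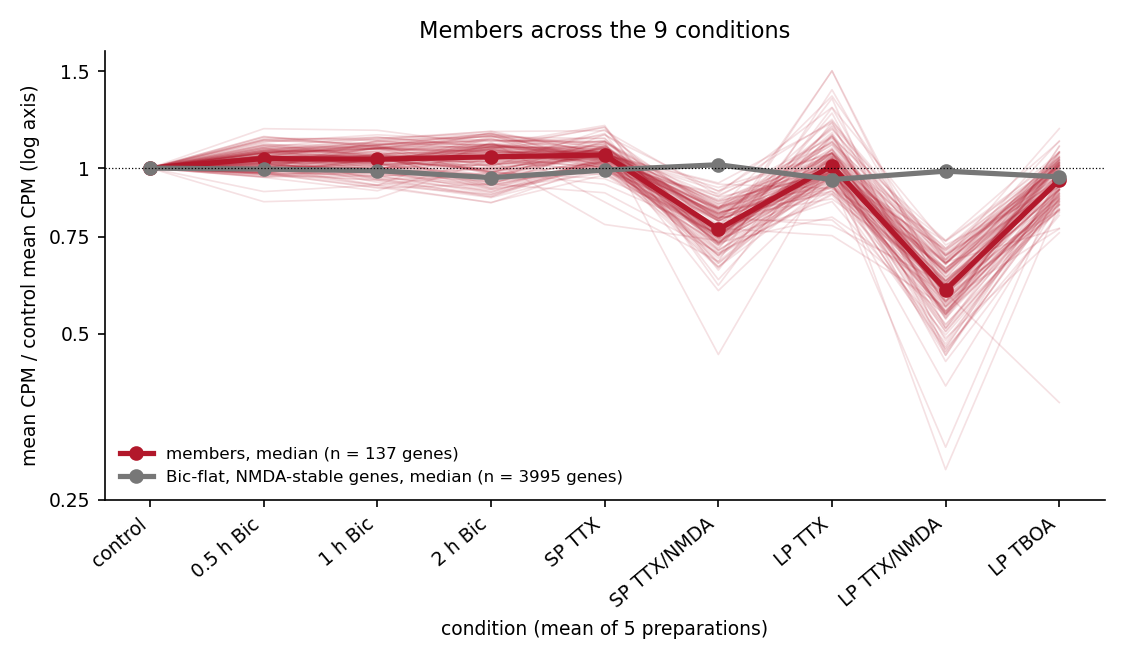
Mean CPM of each gene divided by its control mean (log axis) in the 9 conditions, each a mean of 5 preparations. Thin lines are the 137 NMDA-lowered genes (members), the thick red line is their median and the grey line the median of 3995 Bic-flat genes whose LP TTX/NMDA mean was within 0.85 to 1.18 times that of 2 h Bic. The red median was 0.775 in SP TTX/NMDA and 0.602 in LP TTX/NMDA, where the grey median was 1.01 and 0.987.

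The plot of levels by condition shows both uses of NMDA as the low points. The summed level of the 137 genes was 20780 ± 2661 CPM (SD, n = 5) in the control, 21372 ± 763 CPM after 2 h Bic, 16259 ± 1190 CPM in SP TTX/NMDA and 12391 ± 981 CPM in LP TTX/NMDA. It was 21778 ± 1086 CPM in SP TTX, 20981 ± 718 CPM in LP TTX and 19601 ± 800 CPM in LP TBOA. The lowest control library, preparation 3, stood at 16544 CPM. In that preparation the median gene had 1.36 times its control level after 0.5 h Bic, whereas the other 4 preparations had medians between 0.905 and 1.07. After 1 and 2 h Bic the median was 1.31 and 1.32 in preparation 3, against 0.964 to 1.05 and 0.942 to 1.03 in the others. The rule applied without preparation 3 selected 154 genes, 128 of them among the 137.

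To read the selecting ratio in libraries that had not chosen the genes, the rule was applied to 4 preparations and the ratio taken in the remaining preparation. The 113 to 167 genes so chosen had a median ratio between 0.547 and 0.592 when preparation 1, 3, 6 or 7 was left out, and 0.708 in preparation 8. The mean of the 5 medians was 0.597 ± 0.0643 (SD, n = 5). In every left-out preparation all chosen genes lay under 1, whereas the median of all Bic-flat genes was between 1.04 and 1.09. Preparation 8 gave the weakest lowering, with 48 of 167 genes at or under 0.65.

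The upstream sequences of 4 of the genes with the lowest ratio are given as examples. The 4 are from the 12 genes of lowest ratio and have a single start in the RefSeq table used here. Each is the 250 bases before the transcription start, 5′ to 3′ on the strand of the gene, from RefSeq on GRCm38.p6. Capitals mark, on either strand, the core of the cyclic AMP response element (TGACG), the GC box (GGGGCGGGG) and the CCAAT box (CCAAT), which were searched as letters and do not overlap each other here.
Adamts3 (chr5:89883335-89883584, minus strand): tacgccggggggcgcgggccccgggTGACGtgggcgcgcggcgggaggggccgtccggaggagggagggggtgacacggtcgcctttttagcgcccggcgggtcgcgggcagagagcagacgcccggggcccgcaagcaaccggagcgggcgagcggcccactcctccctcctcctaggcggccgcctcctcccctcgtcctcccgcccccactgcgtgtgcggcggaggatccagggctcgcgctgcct
Stxbp5l (chr16:37384959-37385208, minus strand): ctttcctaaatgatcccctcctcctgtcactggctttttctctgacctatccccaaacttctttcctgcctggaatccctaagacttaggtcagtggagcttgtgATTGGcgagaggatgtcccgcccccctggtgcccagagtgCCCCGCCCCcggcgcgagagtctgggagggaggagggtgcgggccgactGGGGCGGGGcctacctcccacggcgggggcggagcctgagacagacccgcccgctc
Mdga1 (chr17:29887883-29888132, minus strand): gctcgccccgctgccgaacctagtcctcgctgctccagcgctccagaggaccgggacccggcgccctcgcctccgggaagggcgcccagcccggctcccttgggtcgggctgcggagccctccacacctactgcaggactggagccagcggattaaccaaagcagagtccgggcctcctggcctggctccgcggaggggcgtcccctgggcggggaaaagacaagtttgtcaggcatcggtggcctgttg
Adcy9 (chr16:4420499-4420748, minus strand): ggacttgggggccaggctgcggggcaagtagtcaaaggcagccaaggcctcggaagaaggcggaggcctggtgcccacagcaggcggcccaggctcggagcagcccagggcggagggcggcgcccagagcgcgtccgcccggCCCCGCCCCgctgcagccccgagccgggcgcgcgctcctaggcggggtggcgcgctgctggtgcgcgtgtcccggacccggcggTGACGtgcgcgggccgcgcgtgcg

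All 4 were GC-rich, from 64.8% in Stxbp5l to 78.8% in Adcy9, with 14 to 35 CpG dinucleotides. Adamts3 and Adcy9 each held 1 TGACG, at 225 and 24 bases before the start, Stxbp5l held 2 GC boxes, Adcy9 1, and Mdga1 none of the 3 motifs. Of all 32851 promoter windows in the table, 17.8% held TGACG, 10.4% the GC box and 33.8% the CCAAT box within the same 250 bases. A comparison over all 137 genes would be void, because 76 (55.5%) had a window in the table.

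The lowest ratio belonged to Dcc, the netrin receptor that steers commissural axons. Its level was 35.3, 37.3, 42.6, 40.9 and 29.4 CPM after 2 h Bic, and 9.05, 10.1, 11.6, 9.83 and 13.03 CPM in LP TTX/NMDA, a ratio of 0.289. Every LP TTX/NMDA library thus lay below every library of 2 h Bic, and the rule used both conditions. Adamts3, a protease that processes procollagen, followed with 40.5 ± 5.84 CPM after 2 h Bic and 12.8 ± 2.11 CPM in LP TTX/NMDA (ratio 0.316). Il16, which encodes a precursor with a neuronal PDZ form, had 21.5 ± 3.82 and 8.25 ± 1.36 CPM (0.384). Stxbp5l (tomosyn-2, an inhibitor of vesicle fusion) had a ratio of 0.418, Mdga1 (which binds neuroligins) 0.430, Adcy9 (an adenylyl cyclase) 0.450, and Pcdha12 (a clustered protocadherin) 0.454. These groups, which chose the genes, did not overlap in any of the 7, as in 127 of the 137 genes and 11.5% of the 11271 coding genes.

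Nptx1, a neuronal pentraxin that clusters AMPA receptors, had 228 ± 29.1 CPM after 2 h Bic and 105 ± 16.3 CPM in LP TTX/NMDA (0.459). The remaining genes among the 12 lowest were Pcdhgc5 (0.463), Atp2b3, a plasma membrane calcium pump (0.474), Prkg1, the cyclic GMP-dependent kinase (0.479), and Nkain3, an interactor of the sodium pump (0.485). Of the 137 genes, 16 had a ratio under 0.5.

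**Figure D2:**
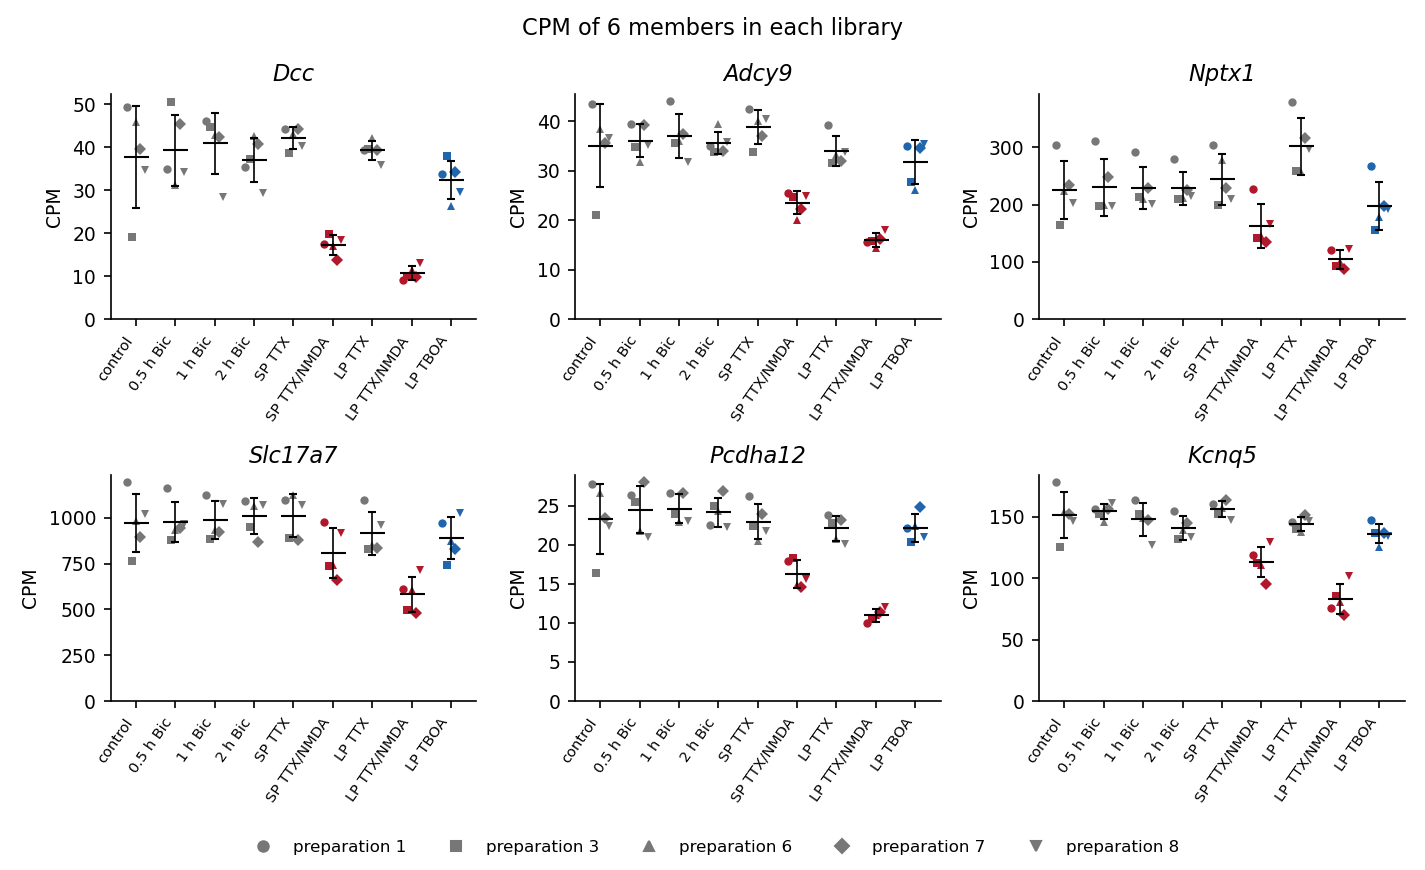
CPM of Dcc, Adcy9, Nptx1, Slc17a7, Pcdha12 and Kcnq5 in each of the 45 libraries. Symbols are the 5 preparations, bars the mean ± SD, red the 2 conditions with NMDA and blue LP TBOA. In Dcc, the LP TTX/NMDA libraries lie between 9.05 and 13.03 CPM and the SP TTX/NMDA libraries between 13.7 and 19.9 CPM.

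The SP offered a test in libraries that the rule had not used, on cultures of the same 5 preparations. The active effect, SP TTX/NMDA compared to SP TTX, lowered 129 of the 137 genes after 0.5 h of NMDA and raised 0 (edgeR's quasi-likelihood test, Benjamini-Hochberg adjusted p-value under 0.05). Of all 32229 genes tested, 3.32% were lower and 0.956% higher. The median log2 fold change of the 137 was −0.49 (range −1.36 to −0.17), all 137 were below 0, and 136 had an unadjusted p-value under 0.05. With the low-count filter of edgeR, 122 were lowered and 0 raised (6.77% and 2.2% of 15705 genes), and with DESeq2 127 and 0 (9.12% and 2.82%). With the preparation as a block and the low-count filter, 133 were lowered and 0 raised (10.3% and 5.93% of 15705 genes). The other 7207 Bic-flat genes had a median of 0.00, with 511 lower (7.09%) and 76 higher. Of the 3995 NMDA-stable genes, 122 (3.05%) were lower. The numbers outside the 137 varied with the libraries. Without preparation 1, 3 or 7, 32, 52 and 36 NMDA-stable genes were lower. Among the other Bic-flat genes, 286 were lower and 48 higher without preparation 1, 311 were lower without preparation 7 and 254 were higher without preparation 8. In 130 of the 137 genes all 5 preparations were lower with NMDA, and in 87 the 2 groups did not overlap. The corresponding shares of all 11271 expressed coding genes were 13.2% and 5.28%.

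**Figure D3:**
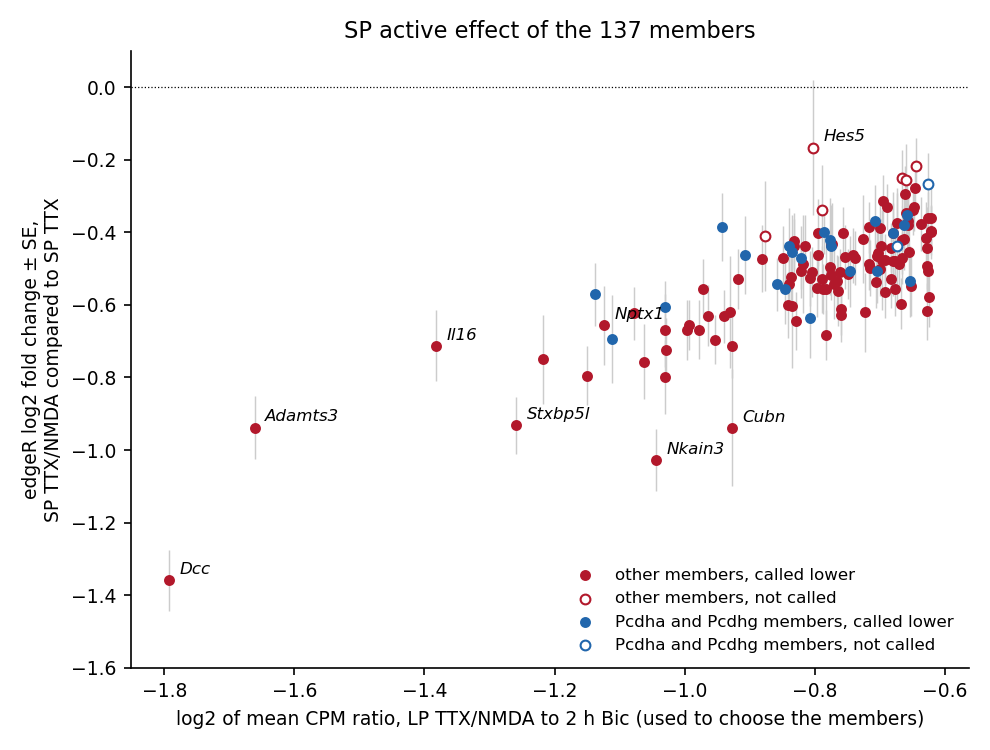
SP active effect of each of the 137 genes (edgeR log2 fold change ± SE, 5 against 5 libraries) against the log2 ratio of LP TTX/NMDA to 2 h Bic that chose it. Filled points were called lower and open points were not called, and all 137 lie below 0. Dcc is lowest at −1.36 and Hes5 highest at −0.17.

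Dcc changed most here as well. It stood at 44.3, 38.6, 43.2, 44.4 and 40.4 CPM in SP TTX and at 17.5, 19.9, 17.1, 13.7 and 18.5 CPM in SP TTX/NMDA (log2 fold change −1.36, SE 0.08, adjusted p = 9.4e-14). Adjusted p-values of single genes are from the fit without the low-count filter unless stated. With the filter, those of Dcc, Nkain3, Mdga1, Nptx1, Pcdhgc5 and Slc17a7 were higher, at 1.5e-06, 7.2e-06, 0.017, 0.016, 0.02 and 0.042. In some genes, such as Pcdha5, the filter gave a lower value. The SP TTX/NMDA libraries were all below the SP TTX libraries. Nkain3 fell by 1.03 on the log2 scale (SE 0.09, adjusted p = 2e-10), and Cubn, the endocytic receptor cubilin, which was the least abundant of the 137 genes at 3.17 ± 0.293 CPM after 2 h Bic, by 0.94 (SE 0.16, adjusted p = 0.0002). Adamts3 fell by 0.94 (adjusted p = 2e-09), Stxbp5l by 0.93 (adjusted p = 1.5e-10), and Trpm3, a heat- and steroid-sensitive cation channel, by 0.80 (adjusted p = 1.5e-06).

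Adcy9 stood at 42.6, 33.9, 40.1, 37.1 and 40.6 CPM in SP TTX and at 25.6, 24.7, 20.1, 22.4 and 24.97 CPM in SP TTX/NMDA (log2 fold change −0.80, SE 0.08, adjusted p = 1.7e-08). All 5 libraries with NMDA were below all 5 without. Prkg1 fell by 0.76 (adjusted p = 4.6e-06), Mdga1 by 0.75 (adjusted p = 9.6e-05) and Camk2a by 0.72 (adjusted p = 5.8e-07).

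The 8 genes not called in the SP active effect had smaller or less even differences. Hes5, a Notch target gene of progenitors that was near the CPM minimum, had a log2 fold change of −0.17 (SE 0.19, adjusted p = 0.67). Hhip, a hedgehog-binding protein, Tacr3, the neurokinin B receptor, and Pcdhac1 had −0.41, −0.34 and −0.44, with adjusted p-values of 0.15, 0.15 and 0.13. Adam11 (−0.25, adjusted p = 0.063), Pcdha5 (−0.27, adjusted p = 0.066), Gm1043 (−0.26, adjusted p = 0.18) and Brinp1 (−0.22, adjusted p = 0.12) were lower in all 5 preparations. With the preparation as a block and the low-count filter, Adam11 (adjusted p = 0.022), Pcdha5 (0.025), Gm1043 (0.022) and Brinp1 (0.014) passed the threshold, and Pcdha5 also passed with the filter alone (0.029). Tacr3 and Hhip passed the threshold without preparation 8 (adjusted p = 5.1e-06 and 0.0047) or without preparation 6 (adjusted p = 0.043 and 0.0069).

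The most abundant of the 137 genes by CPM after 2 h Bic included Camk2a, the α subunit of the calcium/calmodulin kinase of excitatory synapses (1130 ± 77.0), Nptxr, the pentraxin receptor (1023 ± 51.7), Slc17a7, the vesicular glutamate transporter VGLUT1 (1009 ± 96.3), Psd3, an ARF6 exchange factor (669 ± 33.7), and Herc2, a large ubiquitin ligase (510 ± 56.5). Per kilobase of exon, Nptxr (198 CPM per kb) and Slc17a7 (187 CPM per kb) were highest. In LP TTX/NMDA, Camk2a stood at 554 ± 104 CPM and Slc17a7 at 581 ± 96.0 CPM.

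Slc17a7 had 1098, 888, 1123, 878 and 1068 CPM in SP TTX and 978, 734, 742, 657 and 917 CPM in SP TTX/NMDA. The groups overlapped between preparations, but within each preparation the library with NMDA was lower (log2 fold change −0.40, SE 0.09, adjusted p = 0.0056). Psd3 fell by 0.63 (adjusted p = 3e-06), Nptxr by 0.39 (adjusted p = 0.0017) and Herc2 by 0.28 (adjusted p = 0.012).

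Slc17a7 and Camk2a are also defining markers of excitatory neurons, so the other 5 markers of that cell type were summed without them. Their sum was 495 ± 39.6 CPM in SP TTX and 403 ± 30.9 CPM in SP TTX/NMDA, and 467 ± 22.9 CPM in LP TTX and 350 ± 43.01 CPM in LP TTX/NMDA. The summed 9 markers of inhibitory neurons ranged from 1594 to 2003 CPM in SP TTX, 1958 to 2817 CPM in SP TTX/NMDA, 1749 to 2546 CPM in LP TTX and 2251 to 3386 CPM in LP TTX/NMDA, and the 12 astrocyte markers had 1130 to 1678, 1040 to 1616, 1017 to 1577 and 1416 to 2530 CPM. The means of Gfap and Slc1a2 were lower in SP TTX/NMDA than in SP TTX, and those of most other astrocyte markers were higher. All 9 inhibitory markers and 11 of the 12 astrocyte markers had at least 1 CPM in the control. In the same order of conditions, the 9 markers of the oligodendrocyte lineage summed to 118 to 194, 123 to 239, 97.9 to 163 and 171 to 342 CPM, without overlap in the LP. The 9 vascular and fibroblast markers had 71.5 to 151, 88.2 to 202, 76.7 to 142 and 112 to 238 CPM. The 8 microglial markers had 7.52 to 11.7, 7.38 to 11.3, 6.99 to 9.38 and 9.61 to 14.03 CPM, also without overlap in the LP. No marker was at 0 in every library. The part of these marker levels in the lowering of the 137 genes was not tested.

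The largest family was that of the clustered protocadherins. Pcdha, Pcdhb and Pcdhg genes lie in 3 neighbouring clusters on chromosome 18 and encode adhesion proteins whose combinations give neurons individual surface identities. In the Pcdha and Pcdhg clusters, each variable exon with its own promoter is joined to exons shared by the cluster, whereas Pcdhb genes have single coding exons. Reads on the shared exons overlap several genes and were not counted by the authors, so counts of Pcdha and Pcdhg genes come from the exons particular to each. Of 69 Bic-flat cadherins and protocadherins, 24 were among the 137 genes (34.8%, against 1.87% of all Bic-flat genes). Grouped by cluster, a grouping chosen after the values were seen, the 24 comprised 10 of 12 Bic-flat Pcdha genes, 13 of 19 Pcdhg genes, 0 of 16 Pcdhb genes, and the non-clustered Pcdh1.

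Over all genes at or over the CPM minimum, the ratio of LP TTX/NMDA to 2 h Bic ranged from 0.454 to 0.694 in the 12 Pcdha genes, from 0.463 to 1.03 in the 21 Pcdhg genes and from 0.673 to 1.22 in the 20 Pcdhb genes, with medians of 0.606, 0.614 and 1.06. Pcdha12 stood at 22.5, 24.9, 24.3, 26.9 and 22.3 CPM after 2 h Bic and at 9.96, 10.5, 11.1, 11.4 and 12.1 CPM in LP TTX/NMDA. The groups did not overlap, but the rule used both of them. The Pcdhg gene at 1.03 was Pcdhgc3, which was not flat in Bic and was singled out after its values were seen, as was Pcdhb2 at 0.673.

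In the SP active effect, 9 of the 12 Pcdha genes, 18 of the 21 Pcdhg genes and 2 of the 20 Pcdhb genes were lowered, with median log2 fold changes of −0.39, −0.47 and −0.05. Among the 137, 8 of 10 Pcdha and 13 of 13 Pcdhg genes were lowered. Pcdha12 had 26.3, 22.4, 20.6, 23.9 and 21.8 CPM in SP TTX and 17.98, 18.3, 14.9, 14.6 and 15.6 CPM in SP TTX/NMDA, without overlap (log2 fold change −0.57, SE 0.09, adjusted p = 3.2e-05). Pcdhgc5 fell by 0.69 (adjusted p = 0.00026), Pcdhga11 by 0.61 (adjusted p = 4.6e-07) and Pcdha9 by 0.39 (adjusted p = 0.01). None of these Pcdha or Pcdhg genes was called when TBOA was compared to LP TTX, except Pcdhgc5, which was lower with the preparation as a block (adjusted p = 0.0098), and 1 Pcdhg gene without preparation 8.

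**Figure D4:**
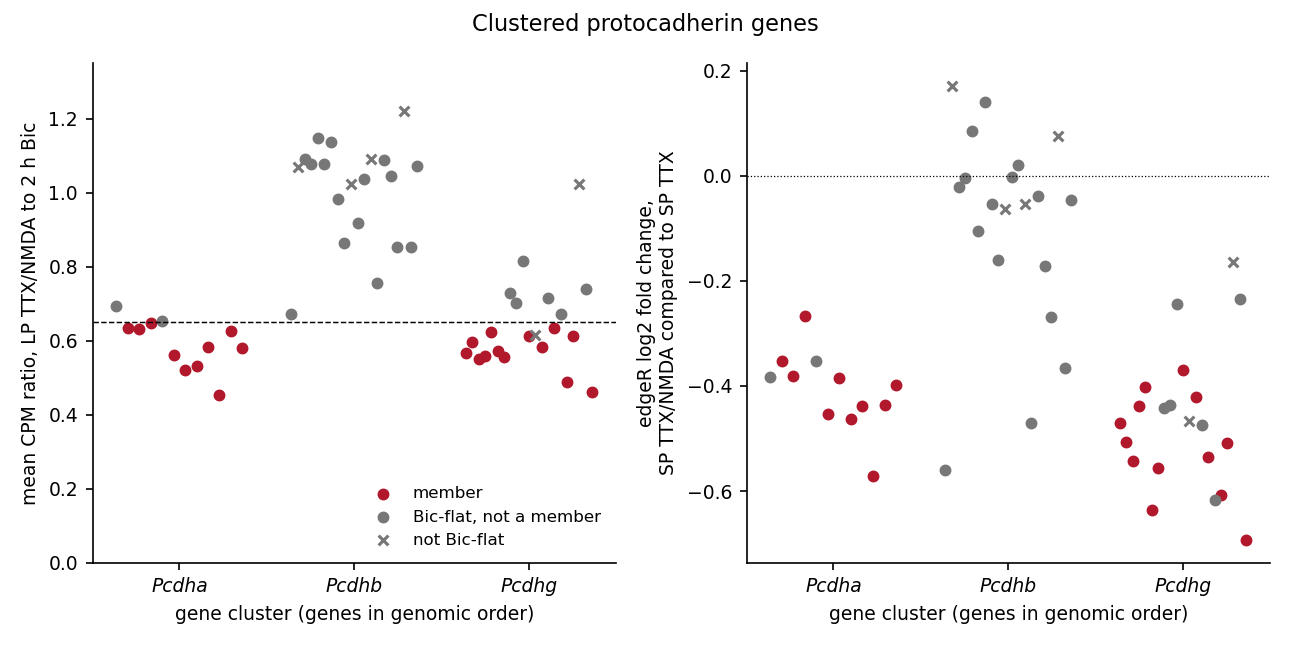
Clustered protocadherin genes with at least 3 CPM after 2 h Bic, in genomic order within each cluster. The left panel gives the ratio of mean CPM of LP TTX/NMDA to 2 h Bic, with the threshold of 0.65 as a dashed line, and the right panel the edgeR log2 fold change of the SP active effect. Red circles are among the 137 genes, grey circles are other Bic-flat genes and crosses are genes that were not flat in Bic. Pcdhb genes lie between 0.673 and 1.22 on the left.

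The second family by share was axon guidance, with 8 of 41 Bic-flat ligands and receptors (19.5%), all 8 lowered in the SP active effect. Over all 41, 11 were lowered and 0 raised. Besides Dcc they included Epha4, an ephrin receptor, which stood at 218 ± 16.2 CPM after 2 h Bic and 110 ± 14.8 CPM in LP TTX/NMDA and fell by 0.66 in the SP (adjusted p = 3.5e-08). Slit1, a ligand of Robo receptors, fell by 0.44 (adjusted p = 0.0002) and Nrp2, a semaphorin coreceptor, by 0.50 (adjusted p = 2.7e-05). Their ratios of LP TTX/NMDA to 2 h Bic were 0.562 and 0.583.

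Synaptic and leucine-rich repeat adhesion proteins contributed 6 of 60 Bic-flat genes (10%), all lowered in the SP. Over all 60, 14 were lowered and 1 raised, where 8.71% of all Bic-flat genes were lowered. Nptx1 stood at 304, 200, 277, 228 and 210 CPM in SP TTX and at 228, 141, 146, 134 and 166 CPM in SP TTX/NMDA. Both groups had their highest value in preparation 1, and each preparation was lower with NMDA (log2 fold change −0.66, SE 0.11, adjusted p = 0.00013). Lingo1, a Nogo receptor partner, fell by 0.43 (adjusted p = 0.00041), and Islr2, a leucine-rich repeat protein of axons, by 0.46 (adjusted p = 3.7e-05).

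Ion channels followed. Of the Bic-flat potassium channels, 4 of 51 were among the 137 genes (7.84%), and of the sodium, calcium, chloride and Trp channels 4 of 58 (6.90%), all 8 lowered in the SP. Kcnq5, a subunit of the M-current channel, stood at 160, 152, 157, 163 and 148 CPM in SP TTX and at 119, 112, 110, 95.4 and 129 CPM in SP TTX/NMDA, without overlap (log2 fold change −0.54, SE 0.07, adjusted p = 3e-06). Kcnh1, a voltage-gated channel, fell by 0.47 (adjusted p = 0.00064), and Kcnj6, the inward rectifier GIRK2, by 0.54 (adjusted p = 0.00026). Cacna1c, the pore of an L-type calcium channel, fell by 0.51 (adjusted p = 1.3e-06), Cacna1e, that of the R-type channel, by 0.47 (adjusted p = 0.00058), and Chrna7, the α7 nicotinic receptor, by 0.46 (adjusted p = 0.00059). Over all Bic-flat genes of the lists, 9 potassium channels were lowered and 4 raised, and 12 of the other channels were lowered and 0 raised.

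Signalling genes were spread over several lists. Small GTPases and their regulators numbered 8 of 158 (5.06%), all lowered in the SP, and over all 158, 26 were lowered and 1 raised. Among the 8 were Arhgef28, a guanine nucleotide exchange factor, which fell by 0.60 (adjusted p = 3.2e-05), and Rap1gap2, which inactivates Rap, by 0.53 (adjusted p = 1.2e-05). Rasgrp1, a calcium-responsive Ras exchange factor, fell by 0.49 with an adjusted p of 0.03, which was 0.15 with the low-count filter. Of the 146 Bic-flat kinases, 3 were among the 137 genes (2.05%, near the 1.87% of all Bic-flat genes), Prkg1 and Camk2a among them. All 3 were lowered in the SP, and over all 146, 18 were lowered and 2 raised. Pde1a, a calmodulin-dependent phosphodiesterase, fell by 0.55 (adjusted p = 1.7e-05) and Ptprn2, a dense-core vesicle protein of the phosphatase family, by 0.31 (adjusted p = 0.0048).

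Over all 144 Bic-flat solute carriers, 13 were lowered in the SP and 1 raised. Of the 144, 4 were among the 137 genes (2.78%, against 1.87% of all Bic-flat genes), all lowered in the SP. Besides Slc17a7 these were Slc9a7, a sodium/proton exchanger (−0.67, adjusted p = 6.7e-07), Slc8a2, a sodium/calcium exchanger (−0.44, adjusted p = 0.00093), and Slc24a2, a potassium-dependent exchanger (−0.49, adjusted p = 0.0013). Shisa6, an auxiliary subunit that was the only member of the glutamate receptor list of 28, fell by 0.63 (adjusted p = 5.1e-07). Gpr37, an orphan receptor, fell by 0.56 (adjusted p = 0.0002), Galnt17, a glycosyltransferase, by 0.51 (adjusted p = 2.2e-05), and the ubiquitin ligase genes March1, Rnf150 and Klhl11 by 0.54, 0.56 and 0.55 (adjusted p = 3.3e-06, 2.5e-06 and 2.8e-05).

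Given the share of 1.87% among all Bic-flat genes, short lists may hold 0 of the 137 genes, and 5 lists did. These were 87 Bic-flat chromatin regulators, 67 cytosolic ribosomal proteins, 33 growth factors and receptor tyrosine kinases, 30 genes of the TGF-beta pathway and 12 GABA-A and glycine receptor subunits. The ribosomal protein genes had a median ratio of 1.39 in LP TTX/NMDA to 2 h Bic, on the CPM scale. The transcription factors among the 137 were Zfp382 and Zbtb16 of 96 zinc finger genes (2.08%) and Hes5 of 66 of other classes (1.52%), shares near the 1.87% of all Bic-flat genes. Zbtb16 fell by 0.29 in the SP (adjusted p = 0.017). In all, 75 of the 137 genes were in at least 1 list and 62 in none.

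The genes also shared a feature that the rule had not used, the length of the gene. Their median span from start to end on GRCm38 was 144 kb, against 31.8 kb for the NMDA-stable genes, and 86 of them (62.8%) spanned more than 100 kb, against 18.7%. Without Pcdha and Pcdhg genes, whose annotated spans reach to the shared exons, the median was 142 kb and the share 60.5%. Dcc spanned 1097 kb and Prkg1 1201 kb, whereas Nptx1 (9.04 kb), Islr2 (8.02 kb) and Hes5 (1.45 kb) were short. Among Bic-flat genes, the share that met the rule was 0.328% of 1524 genes up to 10 kb, 0.838% from 10 to 30 kb, 1.28% from 30 to 100 kb, 4.90% from 100 to 300 kb and 8.29% of 386 genes over 300 kb.

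Within the 137, the SP active effect was taken by class of span. The median log2 fold change was −0.46 in the 5 genes up to 10 kb, −0.44 in 18, −0.47 in 28 and −0.50 in 54 genes of the following classes and −0.54 in the 32 genes over 300 kb. The other Bic-flat genes had medians of 0.08, 0.02, −0.05, −0.09 and −0.11 in the same classes, and 0.922% of the shortest and 24.01% of the longest were lowered. These are descriptions over genes, which are not replicates. The exon length was 7.12 kb at the median against 5.20 kb in the NMDA-stable genes, and the level after 2 h Bic 80.2 against 60.8 CPM.

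**Figure D5:**
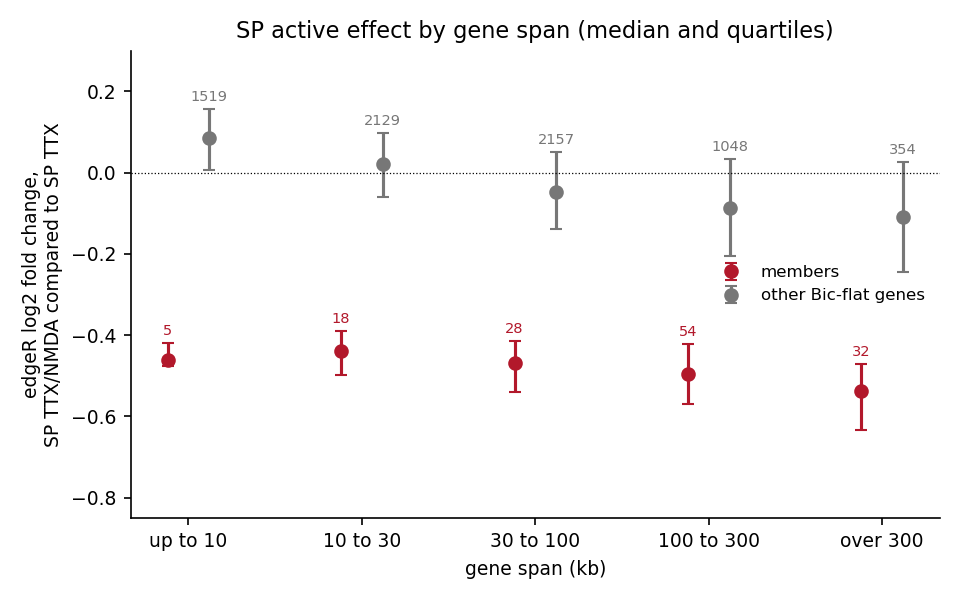
SP active effect (edgeR log2 fold change) by gene span for the 137 genes (members, red) and the other Bic-flat genes (grey). Points are medians, bars the quartiles and small numbers the genes in each class. The red medians lie between −0.54 and −0.44 and the grey medians between −0.11 and 0.08.

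In LP TTX, without NMDA, most of the genes were near their Bic level. The ratio of LP TTX to 2 h Bic, which uses libraries of the rule and was not tested, had a median of 0.982, and 96 of the 137 genes lay within 0.1 of 1. All 7344 Bic-flat genes were alike in this, with a median of 0.988 and 5226 genes within 0.1 of 1. Among the 137 genes, the range was as follows. The ratio was lowest in Tspan18 (0.787), Vash1 (0.820), Mdga1 and Apcdd1 (0.837 each) and highest in Zfp382 (1.53), Hes5 (1.45), Nptx1 (1.32) and Ccsap (1.29).

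A test of the TTX condition over time was possible without libraries of the rule, between LP TTX and SP TTX, which differ in the duration of both Bic and TTX. Of the 137 genes, 11 were raised and 4 lowered in the LP (3.57% and 2.77% of all 32532 genes tested). With the low-count filter, 8 were raised and 3 lowered (7.46% and 6.03% of 16001 genes). With the preparation as a block and the same filter, 15 were raised and 9 lowered (12% and 10.6%). The median log2 fold change was 0.00, as it was −0.01 for the NMDA-stable genes. Zfp382, a KRAB zinc finger gene, stood at 8.91, 8.69, 8.26, 10.4 and 10.03 CPM in SP TTX and at 14.3, 14.3, 13.9, 14.2 and 14.5 CPM in LP TTX. The groups were far apart (log2 fold change 0.67, SE 0.09, adjusted p = 1.8e-06).

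Hes5 rose by 1.00 (SE 0.17, adjusted p = 0.0001), Hhip by 0.76 (adjusted p = 0.00038) and Ccsap, a centriolar and spindle protein, by 0.42 (adjusted p = 9.6e-05). Vash1, a tubulin carboxypeptidase, fell by 0.41 (adjusted p = 4.5e-05), Tspan18, a tetraspanin, by 0.37 (adjusted p = 0.00075), Apcdd1, an inhibitor of Wnt signalling, by 0.35 (adjusted p = 0.032, and 0.066 with the low-count filter) and Plxna1, a semaphorin receptor, by 0.22 (adjusted p = 0.035).

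With TBOA, most of the genes lay a little under their Bic level. The ratio of LP TBOA to 2 h Bic, a description with libraries of the rule, had a median of 0.922 against 1.01 for all Bic-flat genes. Of the 137 genes, 130 lay below 1, as did 41.5% of all Bic-flat genes. Compared to LP TTX, a comparison that uses no library of the rule, TBOA lowered 26 genes and raised 0 (edgeR, 3.50% and 0.759% of all 32418 genes tested). At an unadjusted p-value under 0.05 there were 49 genes, and DESeq2 called 24 lower and 0 higher (6.95% and 2.05%). With the low-count filter, 20 were lower and 0 higher (6.37% and 1.5% of 15892 genes). The median log2 fold change was −0.10, against 0.00 in the NMDA-stable genes. With the preparation as a block and the same filter, 34 were lower and 2 higher, Vash1 and Tspan18 (8.74% and 3.5%). Without preparation 6 the number lowered was 13. This comparison shares the LP TTX libraries with the preceding one, and TTX was present in LP TTX but not in LP TBOA.

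Hes5 changed most. It stood at 3.80, 5.47, 3.73, 6.63 and 3.45 CPM in LP TTX and at 0.382, 1.39, 1.22, 1.83 and 0.935 CPM in LP TBOA, all below LP TTX (log2 fold change −2.21, SE 0.24, adjusted p = 1.8e-08). It was the only one of the 137 genes whose mean in LP TBOA was under 0.65 times that of 2 h Bic, at 0.362. Zfp382 was lower in TBOA by 0.95 (adjusted p = 9.5e-09), and Ccsap by 0.83 (adjusted p = 6.7e-11), with 51.7, 49.1, 46.3, 44.02 and 54.2 CPM in LP TTX and 29.03, 26.8, 30.6, 24.7 and 30.0 CPM in LP TBOA. The Ccsap groups did not overlap.

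The other 3 of the 6 lowest genes were Nptx1, Cpm and Brinp1. Nptx1 was lower in TBOA by 0.63 (SE 0.10, adjusted p = 2.5e-05), Cpm, a membrane carboxypeptidase, by 0.51 (adjusted p = 0.00051) and Brinp1, a neuronal cell cycle inhibitor, by 0.51 (adjusted p = 3.3e-06). All 6 of these genes were also called higher in LP TTX than in SP TTX, Nptx1 by 0.35 (adjusted p = 0.025), Cpm by 0.35 (adjusted p = 0.035) and Brinp1 by 0.42 (adjusted p = 0.00011), and the LP TTX libraries are the reference for TBOA. With the low-count filter Nptx1 and Cpm did not pass in the comparison of LP TTX to SP TTX (adjusted p = 0.082 and 0.059). With the preparation as a block and the same filter both passed there (adjusted p = 0.0036 and 0.014). In TBOA compared to LP TTX, Dcc fell by 0.29 (adjusted p = 0.03, and 0.071 with the low-count filter), from 39.3 ± 2.22 CPM in LP TTX to 32.4 ± 4.52 CPM in LP TBOA. Camk2a and Slc17a7 had log2 fold changes of −0.14 and −0.07 (adjusted p = 0.4 and 0.69).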

How the data were processed

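Poly-A RNA of 45 libraries (5 culture preparations, 9 conditions) was sequenced by the authors with a strand-specific kit, single-end. Per the labels and the study's methods, reads were demultiplexed with bcl2fastq (2.20.0.422), aligned with STAR (2.5.4b) to GRCm38 with an Ensembl annotation and counted per gene with featureCounts (1.6.5) on the sense strand, without multi-mapping or multi-overlapping reads. The authors deposited raw counts, from 11316580 to 81129276 per library. Rows without an annotation entry (37) held 0.0131% of counts. CPM is the count divided by the library total and scaled to 1000000.

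The 137 genes, their lists and the tests were chosen with earlier results of these data known. Comparisons without libraries of the rule were tested with edgeR (4.0.16, R 4.3.3; glmQLFit and glmQLFTest, TMM, genes with at least 1 read in the 10 libraries, Benjamini-Hochberg over all genes, threshold 0.05). On simulated counts this unfiltered fit made more false calls than the threshold allows and the fit with filterByExpr fewer, so counts under the filter are given too. Alternatives were RLE factors, filterByExpr, DESeq2 (1.42.0), a preparation block with filterByExpr, all 45 libraries, and each preparation left out. The labels give same-numbered libraries 1 culture preparation. Across 13601 genes, deviations from the condition means of same-numbered libraries had mean correlations of 0.42 (SP active effect), 0.33 (TBOA compared to LP TTX) and 0.47 (LP TTX compared to SP TTX), ranging from −0.17 to 0.73.

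Named genes were the 12 lowest ratios of LP TTX/NMDA to 2 h Bic, the 10 lowest called in the SP active effect, the 6 lowest called with TBOA, the 4 extremes each way of LP TTX to 2 h Bic and of LP TTX to SP TTX, the 6 most abundant, up to 4 per list and 3 on each side of the threshold. The genes not called in the SP active effect, and clustered protocadherins outside the 137, were named after their values were seen. Some genes that this rule names are not reported here.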

Additional observations from a re-analysis of the deposited data

Results flagged for a closer look

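In 4 of 117 condition groups examined, which were the summed level and the 12 genes of the lowest ratio in 9 conditions, 1 library stood apart from the other 4 by Dixon's criterion. Chance gives about 1 in 20 groups. Dcc had 28.4 CPM in preparation 8 after 1 h Bic, against 42.4 to 46.1 CPM in the others. Nptx1 had 279 CPM in preparation 1 after 2 h Bic, against 210 to 226 CPM, and Atp2b3 had 149.9 CPM in preparation 1 in LP TTX, against 119 to 128 CPM. Nkain3 had 14.4 CPM in the control of preparation 3, against 21.8 to 24.4 CPM.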

How the results depend on the processing

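With TMM-scaled CPM the rule chose 280 genes, 109 of them among the 137, and with a ratio of at most 0.5 it chose 16. No CPM minimum gave 160 genes, a minimum of 10 gave 127 and medians in place of means 146. Leaving out 1 preparation gave 113 to 167. The number lowered in the SP active effect was 118 to 134 with 1 preparation left out and 119 with all 45 libraries in 1 fit. That with TBOA was 13 to 31 with 1 preparation left out, lowest without preparation 6, and 13 with all 45 libraries. Those raised with TBOA were 0 to 1, and 2 with the replicate block and low-count filter. In LP TTX compared to SP TTX, 2 to 5 were lowered with 1 preparation left out (2 without preparation 1 or 6), 2 with all 45 libraries, and 9 with the replicate block. The other counts of the 137 genes called stayed within 1.5 times, and no direction of a named gene among them reversed. Outside the 137, the numbers in the SP active effect moved more. NMDA-stable genes lowered were 122, but 286 with DESeq2, 302 with the replicate block and 32 to 171 with 1 preparation left out. Other Bic-flat genes lowered were 511, but 805, 869 and 286 to 603, and those raised 76, but 162, 419 and 48 to 254, and 123 with the low-count filter. The effect of depth was not tested. Genes near 3 CPM, such as Hes5 and Cubn, rest on few reads.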
